A study of Mus musculus with 6 samples.

Results

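The immunoglobulin constant genes, together with Jchain and Mzb1, are the genes from which antibodies are built and released. They were measured here by bulk RNA-seq of CD11b+ cells sorted from the spleens of 6 mice. The 10 genes were taken by name from a table of 43432 genes: the heavy chain genes Ighm, Ighd, Ighg3, Ighg1, Ighg2b, Ighg2c and Igha, the kappa light chain gene Igkc, and the secretion genes Jchain and Mzb1. All 10 were found in the table, and 4 of them (Ighm, Ighg1, Igkc and Jchain) had a mean of at least 10 normalized counts, the level needed to enter the test across genes.

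All 6 hosts were C57BL/6J mice lacking Rag1 (Rag1 KO), studied 8 days after receiving B cells and unmanipulated 2D2 CD4+ T cells, whose receptor recognises myelin oligodendrocyte glycoprotein (MOG). In the IgHMOG iGBGFP group (3 mice) the B cells carried the heavy chain of a MOG-specific antibody and an empty pMSCV vector. In the WT iGB6 group (3 mice) they were wild type and carried a pMSCV vector with the Il6 gene and enhanced green fluorescent protein. The name of the IgHMOG iGBGFP group holds GFP as well, so green fluorescent protein is not taken to differ between the groups. B cells of both groups had been grown in the iGB culture, a system that brings B cells to a germinal centre-like state, and were loaded with MOG protein before transfer. B cell genotype and vector changed together between the groups, so their parts cannot be told apart. Each group had a female as replicate 1 and males as replicates 2 and 3, so sex and replicate 1 cannot be told apart either. The groups are compared as WT iGB6 over IgHMOG iGBGFP throughout.

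An antibody has heavy and light chains, each with a variable part, assembled from V, D and J gene segments, and a constant part. The assembly needs the Rag1 protein, so a Rag1 KO mouse makes no mature B or T cells of its own. Ighm and Ighd encode the constant parts of IgM and IgD, the isotypes of naive B cells. Class switching joins the rearranged V segment to a downstream constant gene instead (Ighg3, Ighg1, Ighg2b, Ighg2c, Ighe or Igha). Plasma cells add the joining chain, Jchain, which links IgM and IgA units, and Mzb1, an endoplasmic reticulum protein that helps antibody folding and that plasmacytoid dendritic cells also express. Unrearranged Ighm can be transcribed as well, in cells that have not assembled a heavy chain. The counts per gene do not tell those transcripts from rearranged ones.

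The heavy chain members lie in a row on chromosome 12 of GRCm38, all on the minus strand. Their order in the direction of transcription is Ighm (113418558 to 113422730), Ighd (113406604 to 113416324), Ighg3 (113356224 to 113361232), Ighg1 (113325240 to 113330523), Ighg2b (113302965 to 113307933), Ighg2c (113285325 to 113288932) and Igha (113254830 to 113260236). Igkc is on chromosome 6 at 70726435 to 70726966, plus strand, and Jchain on chromosome 5 at 88519809 to 88527891, minus strand. Each range is the whole annotated gene, with exons, introns and untranslated regions.

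Because the 4 IgG genes are related, their hinge exons are printed here, the short coding exon between the first and the second constant domain whose length differs between these genes. They are given 5′ to 3′ on the transcribed (minus) strand, from the GENCODE M21 transcripts of GRCm38. The hinge exon is 48 bases in Ighg3 (chr12:113360529-113360576), 39 in Ighg1 (chr12:113329844-113329882), 66 in Ighg2b (chr12:113307261-113307326) and 63 in Ighg2c (chr12:113288263-113288325).
Ighg3: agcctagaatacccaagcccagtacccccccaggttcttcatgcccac
Ighg1: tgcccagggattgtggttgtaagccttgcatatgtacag
Ighg2b: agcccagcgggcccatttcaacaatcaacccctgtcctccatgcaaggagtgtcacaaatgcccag
Ighg2c: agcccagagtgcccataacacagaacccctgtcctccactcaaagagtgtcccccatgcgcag
Over the coding sequence of the secreted form, Ighg1 was 73.9 to 75.1% identical to the other 3 genes, and Ighg2b and Ighg2c were the closest pair at 85.6%. Of all distinct 50-base words in the annotated transcripts, 0.393% of those of Ighg1 and 5.49% of those of Ighg2c also occurred in another heavy chain gene. None of those of Ighm did. How the authors' counting treated reads that fit several genes was not stated in the sources used, so a small part of the Ighg2b and Ighg2c reads is uncertain.

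The sorted cells carried the genes of their gate. Itgam, which encodes CD11b, was at 6451 to 12352 normalized counts, Lyz2, the lysozyme of myeloid cells, at 149239 to 295114 and S100a8, a neutrophil calcium-binding protein, at 83889 to 229532. None of the 8 genes of that myeloid check passed the test between groups with limma, edgeR or DESeq2, and 3 had an unadjusted p under 0.05 (24.5% of all genes did). Depth ran from 5196339 to 7564254 reads per library, so 1 read is worth 0.789 to 1.19 normalized counts. By counting error alone, a gene at 0 in a library may stand for as many as 3 reads, which is 2.37 to 3.56 normalized counts there. Rag1 itself, deleted in all hosts, was at 0 to 6.04 normalized counts. Which part of the gene these reads cover is not known from a count per gene, so they do not check the deletion. Each library came from its own mouse, so the p-values measure the spread between mice.

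Ighm was by far the most abundant member, in every library. It was at 2516, 3234 and 4014 normalized counts in replicates 1, 2 and 3 of IgHMOG iGBGFP. In replicates 1, 2 and 3 of WT iGB6 it was at 2047, 2279 and 1867. All WT iGB6 libraries lay below all IgHMOG iGBGFP libraries, with IgHMOG iGBGFP replicate 3 the highest. The group means were 3255 ± 749 and 2064 ± 206 normalized counts (SD, n = 3 per group). By mean level Ighm ranked 314 among the 43432 genes of the table.

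The difference in Ighm between the groups did not pass the test. Its log2 fold change was -0.64 (SE 0.19), with an adjusted p = 0.0740 by limma and an unadjusted p = 0.00732. The groups did not overlap for 23.6% of the 9923 genes tested, and in 11.4% they did not overlap with WT iGB6 the lower group, so separation of the libraries is common here. Ighm passed with DESeq2 on the recovered reads (log2 fold change -0.66, adjusted p = 0.0355), where 9.58% of genes passed. It passed in the authors' deposited table (-0.60, adjusted p = 0.0367), where 8.18% did, and in limma with library weights (-0.51, adjusted p = 0.0429), where 14.5% did. With edgeR it did not (adjusted p = 0.0754). Leaving out any 1 library gave log2 fold changes from -0.80 to -0.50 and adjusted p from 0.0829 to 0.226, so the direction held and no such fit called it. Without replicate 1 of either group, the sex term takes up the female that is left. Those fits and the fit on males alone thus rest on the same male libraries and are not separate checks.

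**Figure D1:**
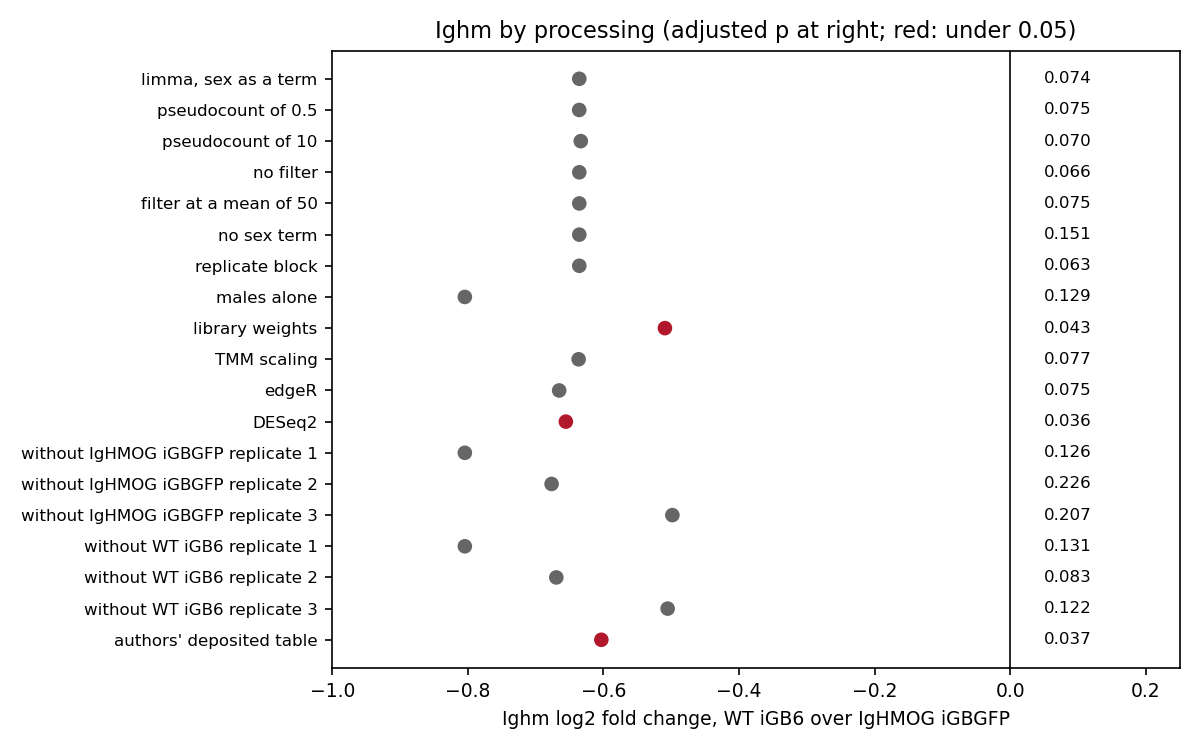
Log2 fold change of Ighm (horizontal axis) under limma and each alternative (vertical axis), with the adjusted p printed at right and red points where it is under 0.05. All values are negative, between -0.80 and -0.50, and 3 of the 18 alternatives call the gene. Males alone and the fits without replicate 1 of either group share the value -0.80, from the same male libraries.

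Across the 4 tested members the count of calls was 0 with limma and 0 with edgeR, against 6.12% of all genes tested with limma (2.75% higher and 3.37% lower in WT iGB6) and 6.11% with edgeR. At an unadjusted p under 0.05, where 24.5% of all genes passed, Ighm did, and so did Ighg1, which entered the test only through 1 library. DESeq2 called 1, Ighm. The median log2 fold change of all genes tested was 0.02. With 1 female per group, whether the group difference of the 4 members differs by sex could not be resolved (SE of the limma interaction 0.45 to 2.72 on the log2 scale).

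**Figure D2:**
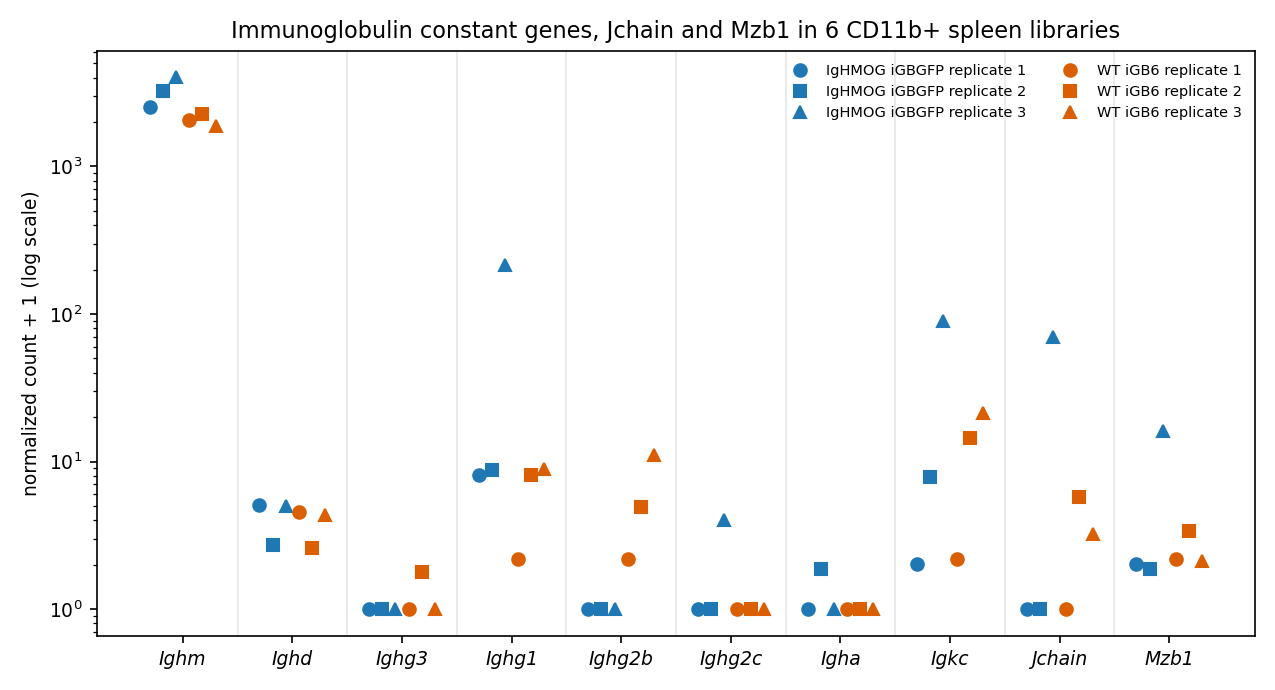
Normalized count plus 1 (vertical axis, log scale) of the 10 members in each of the 6 libraries, with circles, squares and triangles for replicates 1, 2 and 3, blue for IgHMOG iGBGFP and orange for WT iGB6; a point at 1 on the axis is a gene at 0. Ighm stands at 1867 to 4014 in every library, and IgHMOG iGBGFP replicate 3 stands above the other libraries for Ighg1, Igkc, Jchain and Mzb1.

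Ighm also exceeded the other members when levels were taken per length. Per kilobase of annotated exon, to allow for gene length, Ighm had a mean of 1410 normalized counts over the 6 libraries, against 41.3 for Igkc, 15.8 for Ighg1 and 5.03 for Jchain. The per-kilobase ratio of Ighm to Igkc was 694, 132 and 12.7 in IgHMOG iGBGFP replicates 1, 2 and 3 and 487, 47.9 and 26.0 in WT iGB6 replicates 1, 2 and 3. Ighm therefore exceeded the kappa light chain gene in all 6 libraries, by ratios that differed widely because Igkc did. It made up 91.1% of the summed counts of the 10 members in IgHMOG iGBGFP replicate 3 and 97.6 to 99.6% in the other 5 libraries.

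Genes that define B cells were low beside Ighm. Of 18 B cell identity and receptor genes, 11 were under the filter. Of the 7 tested, 0 passed with limma or edgeR, where 6.12 and 6.11% of all genes tested did. With DESeq2 1 passed, where 9.58% did, and 3 had an unadjusted limma p under 0.05, where 24.5% did. Pax5, the transcription factor that commits cells to the B lineage, was at 0 in 5 libraries and at 2.00 in IgHMOG iGBGFP replicate 3. Ms4a1, which encodes CD20, was at 5.80 ± 4.21 normalized counts for IgHMOG iGBGFP and 3.04 ± 3.42 for WT iGB6 (SD, n = 3 per group). Cd79a and Cd79b encode the signalling chains of the B cell receptor. Cd79a was at 11.0 ± 7.51 and 10.6 ± 2.08, and per kilobase of exon its mean was 7.41. Cd79b was at 85.4 ± 28.8 and 49.8 ± 20.0 (log2 fold change -0.77, SE 0.33, adjusted p = 0.183) and at 47.2 per kilobase.

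The 2 members of that list with the smallest p moved in opposite directions without passing. Bank1, a B cell scaffold protein and the list's most abundant gene, was at 139 ± 25.4 and 239 ± 25.8 (log2 fold change 0.79, SE 0.21, adjusted p = 0.0524). Cd22, an inhibitory receptor of B cells, was at 20.8 ± 6.51 and 8.32 ± 4.98 (-1.34, SE 0.43, adjusted p = 0.0917). The summed level of the 18 genes ran from 309 to 380 normalized counts in IgHMOG iGBGFP and from 346 to 452 in WT iGB6, overlapping. In bulk RNA, fewer cells of a type and less RNA per cell cannot be told apart.

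**Figure D3:**
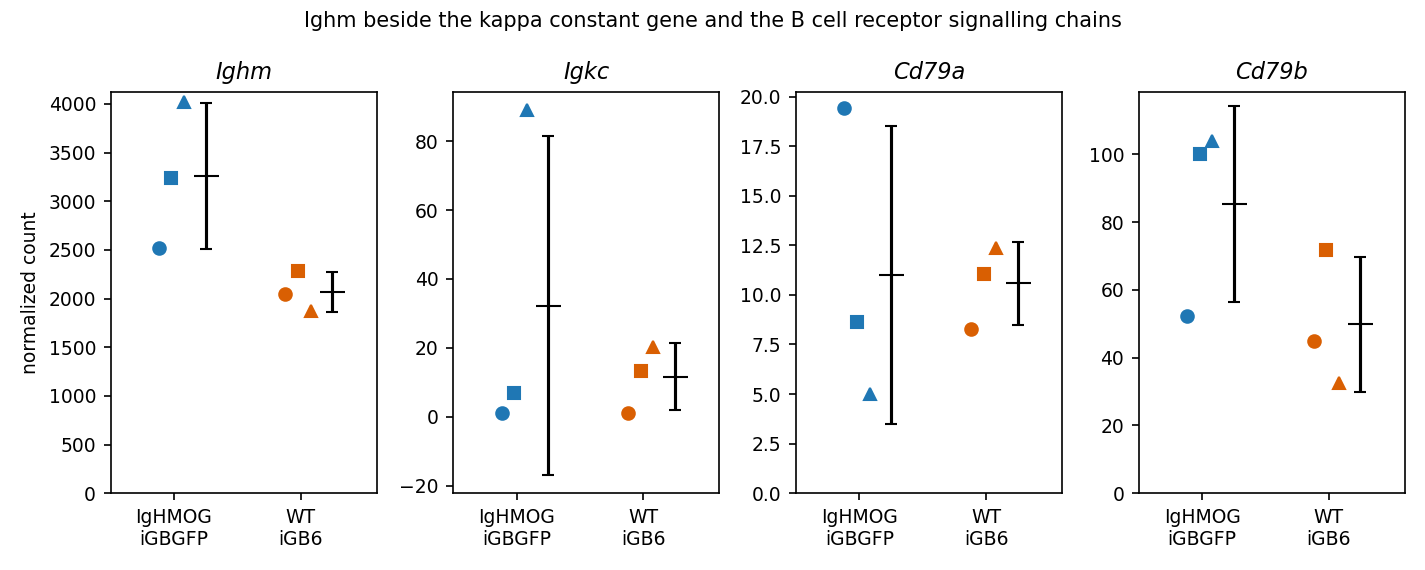
Normalized counts (vertical axes, a separate linear scale per gene) of Ighm, Igkc, Cd79a and Cd79b in the 3 libraries of each group; circles, squares and triangles are replicates 1, 2 and 3, and the bar beside them is the mean ± SD. Only for Ighm do the groups not overlap (1867 to 2279 in WT iGB6, 2516 to 4014 in IgHMOG iGBGFP).

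Pro-B cells, the B lineage precursors that a Rag1 KO host can still make, left few reads. Of their 8 genes, 7 were under the filter and Vpreb2 was at 0 in all libraries. Vpreb1 and Igll1, which encode surrogate light chain parts, reached at most 2.25 and 6.04 normalized counts. Dntt, which adds bases at the joints of rearranging segments, was at 0 in all 3 IgHMOG iGBGFP libraries. In WT iGB6 replicates 1, 2 and 3 it was at 2.37, 0.789 and 6.75, so its groups did not overlap (two-sided exact permutation p = 0.1). Of the genes tested, 23.6% did not overlap either, and no such share was taken for genes under the filter. Il7r, the interleukin-7 receptor chain that T cells also carry, was the 1 gene tested and did not pass (-1.17, SE 0.53, adjusted p = 0.207). The list summed to 11.3 to 32.8 in IgHMOG iGBGFP and 7.89 to 29.2 in WT iGB6, most of it from Il7r in IgHMOG iGBGFP. The part of pro-B cells in the Ighm values was not tested.

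Myeloid genes varied among the libraries beside Ighm. Csf1r, the receptor for macrophage colony-stimulating factor, was at 2706, 4467 and 5517 normalized counts in replicates 1, 2 and 3 of IgHMOG iGBGFP and at 1610, 4357 and 1408 in WT iGB6 replicates 1, 2 and 3 (log2 fold change -0.92, SE 0.34, adjusted p = 0.133). Cd68, a lysosomal protein of macrophages, was at 2678 ± 900.1 and 1748 ± 771.9 (-0.64, adjusted p = 0.157). The other 6 genes of the list had positive log2 fold changes, from 0.18 for Ly6c2 to 0.51 for S100a8, and the list's median was 0.42. Itgam, at 0.49 (adjusted p = 0.203), had the smallest p of these 6. The whole 8-gene myeloid list summed to 346197 to 526417 and 415444 to 692386 normalized counts. The part of the myeloid makeup in the Ighm values was not tested.

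By the naming rule, the genes most like Ighm over the 6 libraries among 6654 compared were Slc46a3 (Pearson r of log2 values 0.99), Gbp9 (0.99), Ensa (0.98), Mprip (0.98) and Mef2c (0.98). Slc46a3, a lysosomal transporter, fell from a mean of 262 to 99.8 normalized counts (log2 fold change -1.25, adjusted p = 0.0454 by limma). That call was lost in 5 of the 6 fits that left out 1 library (adjusted p from 0.0530 to 0.178), held without WT iGB6 replicate 2, and was lost with no sex term (0.135), with males alone (0.0522), with the filter at a mean of 50 (0.0512) and with TMM scaling (0.0505). Mef2c, a transcription factor of B cells and myeloid cells, was at 193 and 108 and did not pass (adjusted p = 0.0524). For Igkc, Jchain and Mzb1 the closest gene was Commd8 (r 0.998), Kdm3a (0.993) and Dip2b (0.983), and none of the 5 closest to each was called. These r values rest on 6 libraries that also differ in group, so high values among so many genes are a description only.

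Of the other naive isotype, Ighd, few reads were found. It was at 4.09, 1.72 and 4.0 normalized counts in the IgHMOG iGBGFP replicates and 3.56, 1.58 and 3.37 in WT iGB6 replicates 1, 2 and 3, or 2 to 4 reads a library. The groups overlapped (two-sided exact permutation p = 0.5, where 3 against 3 libraries allow no p below 0.1). Ighm thus came without a comparable amount of Ighd in all 6 libraries.

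Among the switched heavy chain genes, Ighg1 had the most reads, 247 in all, and 214 of them lay in 1 library. Ighg1, the gene of IgG1, was at 7.16, 7.76 and 214 normalized counts in replicates 1, 2 and 3 of IgHMOG iGBGFP and at 1.19, 7.10 and 7.87 in WT iGB6. IgHMOG iGBGFP replicate 3 alone was high, and the groups overlapped. The log2 fold change was -2.20 (SE 0.93, adjusted p = 0.178 by limma), and -0.84 without that library (adjusted p = 0.483). On the recovered reads it was -3.78 with edgeR and -3.58 with DESeq2 (adjusted p = 0.0632 and 0.0813). Ighg1 entered the test only through that library, since its mean over the other 5 was 6.22.

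Ighg2b, the gene of IgG2b, had the opposite distribution at a very low level. It was at 0 in all 3 IgHMOG iGBGFP libraries and at 1.19, 3.95 and 10.1 normalized counts in WT iGB6 replicates 1, 2 and 3, from 1, 5 and 9 reads. The groups did not overlap (two-sided exact permutation p = 0.1, the smallest possible). Of the 9923 genes tested, 23.6% did not overlap, and no such share was taken for genes under the filter. A count of 0 allows up to 3 reads, and only WT iGB6 replicates 2 and 3 exceeded that. Without the filter on low values limma called it (log2 fold change 2.30, SE 0.63, adjusted p = 0.0234), where 4.76% of 22665 genes were called. The filter leaves Ighg2b out because its mean was 2.54.

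The other switched genes were at or near 0. Ighg3 had 1 read, in WT iGB6 replicate 2, and Igha, the gene of IgA, had 1 read, in IgHMOG iGBGFP replicate 2. Ighg2c, the gene of IgG2c, had 3 reads, all in IgHMOG iGBGFP replicate 3 (two-sided exact permutation p = 1.0 for each of these genes). Ighe, the gene of IgE and not a member, had reads only in IgHMOG iGBGFP replicate 2, at 2.59 normalized counts. Of the IgG reads, Ighg1 made up 98.6 to 100% by normalized count in the IgHMOG iGBGFP libraries. The 100% in replicates 1 and 2 of that group rested on sums of only 7.16 and 7.76 normalized counts. In WT iGB6 replicates 1, 2 and 3 Ighg1 made up 50, 60.0 and 43.8%, of sums of only 2.37, 11.8 and 18.0 normalized counts.

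Igkc, the constant part of the kappa light chain, showed the same high library and a pair of low ones. It was at 1.02, 6.90 and 89.0 normalized counts in replicates 1, 2 and 3 of IgHMOG iGBGFP and at 1.19, 13.4 and 20.2 in WT iGB6. The female replicate 1 of each group had 1 read, and the 4 males had 8 to 89 reads. The groups overlapped, and the group difference was a log2 fold change of -0.37 (SE 0.78, adjusted p = 0.814 by limma). On the recovered reads it was -1.44 with edgeR and -1.33 with DESeq2 (adjusted p = 0.323 and 0.349). Without IgHMOG iGBGFP replicate 3 the sign turned, to 0.70 (adjusted p = 0.524). Of the lambda constant genes, Iglc2 was at 0 to 2.37, and Iglc1, Iglc3 and Iglc4 were not analysed here.

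Jchain was at 0, 0 and 69.0 normalized counts in replicates 1, 2 and 3 of IgHMOG iGBGFP and at 0, 4.74 and 2.25 in WT iGB6. One library held 90.8% of its summed normalized counts. Jchain was at 0 in the female of each group and in IgHMOG iGBGFP replicate 2. It passed the filter only through the high library, as did Igkc, since the means over the other 5 libraries were 1.40 and 8.55. Its log2 fold change was -0.64 (SE 1.31, adjusted p = 0.807 by limma) and turned to 1.21 without IgHMOG iGBGFP replicate 3 (adjusted p = 0.520). On the recovered reads it was -3.17 with edgeR and -2.29 with DESeq2 (adjusted p = 0.209 and 0.765). Mzb1 was at 1.02, 0.862 and 15 in IgHMOG iGBGFP and at 1.19, 2.37 and 1.12 in WT iGB6, with the same library high (two-sided exact permutation p = 1.0). Ighg1, Igkc, Jchain and Mzb1 thus had their highest value in the same library, which was also the highest for Ighm.

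**Figure D4:**
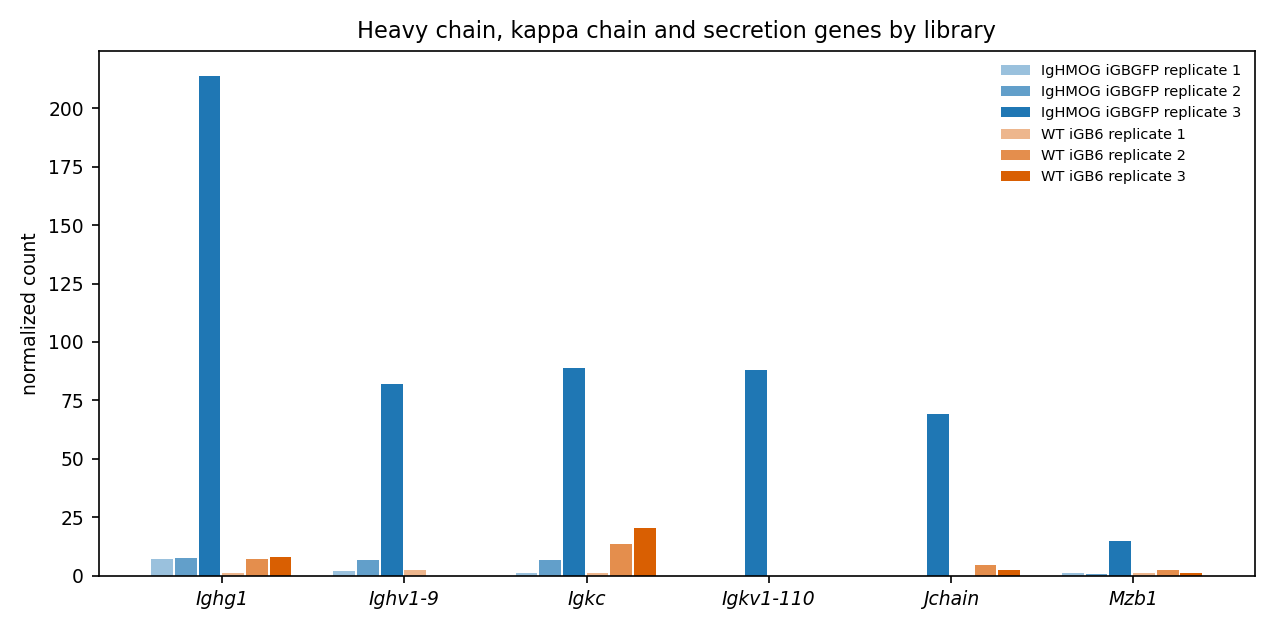
Normalized counts (vertical axis, linear from 0) of Ighg1, Igkc, Jchain and Mzb1 with the V segments Ighv1-9 and Igkv1-110; each gene has 6 bars, IgHMOG iGBGFP in blue and WT iGB6 in orange, darker from replicate 1 to 3. IgHMOG iGBGFP replicate 3 has the tallest bar for all 6 genes, with Igkv1-110 at 88.0 there and at 0 in the other 5 libraries.

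The variable segments, which the choice of members did not use, had 1 heavy and 1 kappa V segment far more abundant in that library than in the others. Igkv1-110 was at 88.0 normalized counts in replicate 3 of IgHMOG iGBGFP and at 0 in the other 5 libraries, and it held 88.9% of the kappa V counts of that library. Ighv1-9 was at 82.0 there, or 50% of the heavy V counts, and at 2.05 and 6.90 in IgHMOG iGBGFP replicates 1 and 2 and 2.37, 0 and 0 in WT iGB6. The B cells of all IgHMOG iGBGFP mice carried the heavy chain of a MOG-specific antibody, and its part in the Ighv1-9 reads was not tested. The counts of Igkv1-110 (88 reads) and Igkc (89 reads) in this library were nearly equal. Both V segments were singled out after their values were seen, and neither passed the test between groups. In that library 17 heavy and 8 kappa V segments had reads, and counts per gene do not show which chains came from the same cell.

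The last 300 bases of the V exon of both segments are shown because each segment was far higher in IgHMOG iGBGFP replicate 3 than in the other libraries. The sequences are those of the reference strain (GENCODE M21, GRCm38), not of the reads, 5′ to 3′ in the direction of transcription. Capitals mark the last in-frame cysteine codon and the bases after it, where the third complementarity-determining region begins. Ighv1-9 is at chr12:114583569-114583868 on the minus strand and Igkv1-110 at chr6:68270968-68271267 on the plus strand.
Ighv1-9: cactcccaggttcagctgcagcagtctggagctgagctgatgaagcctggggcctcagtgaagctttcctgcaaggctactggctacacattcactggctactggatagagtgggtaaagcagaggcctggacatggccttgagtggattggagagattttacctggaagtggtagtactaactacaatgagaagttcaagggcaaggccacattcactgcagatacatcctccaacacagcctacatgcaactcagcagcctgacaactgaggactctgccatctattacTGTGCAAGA
Igkv1-110: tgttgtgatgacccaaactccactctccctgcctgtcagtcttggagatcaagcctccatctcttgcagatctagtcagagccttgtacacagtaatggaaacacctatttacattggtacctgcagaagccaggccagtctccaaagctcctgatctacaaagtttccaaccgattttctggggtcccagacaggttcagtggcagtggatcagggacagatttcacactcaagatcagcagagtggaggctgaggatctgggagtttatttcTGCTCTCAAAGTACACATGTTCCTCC

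Over all V segments the heavy and kappa chains differed. The 115 heavy V segments summed to 77.6 to 232 normalized counts, with 17 to 21 of them detected per library. Ighv1-74 was the most abundant in all libraries except IgHMOG iGBGFP replicate 3, at 34.8, 21.6 and 26.0 in IgHMOG iGBGFP and 53.4, 30.0 and 88.9 in WT iGB6 replicates 1, 2 and 3. The 97 kappa V segments summed to 3.07 and 4.74 in the female replicates 1, and to 11.8 to 13.5 in the males apart from IgHMOG iGBGFP replicate 3, at 99.0. Heavy V reads were thus present at a similar level in libraries with 1 read of Igkc, and the counting is not stated to use strand, so sense and antisense reads could not be told apart. The 4 heavy J segments just upstream of Ighm summed to 2.59 to 9.00, and no read was counted on the 19 heavy D segments.

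Another V segment had reads in 1 library only. Ighv9-3 was at 11.2 normalized counts in WT iGB6 replicate 3, the library highest in Ighg2b, and at 0 in the other 5. It too was singled out after its values were seen.

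Of the plasma cell genes outside the members, Slamf7, Irf4, Tnfrsf13b and Eaf2 were highest in IgHMOG iGBGFP replicate 3. Sdc1, Tnfrsf17, Derl3 and Pou2af1 had at most 1 read in it. Xbp1, Prdm1, Ell2 and Txndc5 were highest in IgHMOG iGBGFP replicate 2, Creld2 in WT iGB6 replicate 1 and Fkbp11 in WT iGB6 replicate 2. Of 14 such genes, 7 were under the filter, 2 of the 7 tested fell in WT iGB6 (3.37% of all genes tested did), none rose (2.75% of all did), and the median log2 fold change of those tested was -0.61. The genes that fell were Slamf7, a SLAM family receptor of plasma cells and many myeloid cells (190 ± 162 to 38.9 ± 20.6 normalized counts, log2 fold change -2.10, adjusted p = 0.0167 by limma), and Irf4, a transcription factor of plasma cells and dendritic cells (79.7 ± 63.6 to 10.7 ± 4.63, -2.55, adjusted p = 0.0215). Neither passed without IgHMOG iGBGFP replicate 3 (adjusted p = 0.0856 and 0.112) or replicate 2 (0.0662 and 0.139), and Slamf7 also did not without replicate 1 of either group (0.0535 and 0.0530). Neither passed with no sex term (0.139 and 0.113). Tnfrsf13b, a receptor for B cell survival factors (325 ± 102 and 380 ± 35.1), and Xbp1, a regulator of secretory capacity (233 ± 64.3 and 176 ± 7.62), were the most abundant of the list and did not pass (adjusted p = 0.431 and 0.313). The part of plasma cells in these values was not tested. Sdc1, which encodes the plasma cell marker CD138, was at 0 in IgHMOG iGBGFP replicate 3 and at 4.09 at most. Tnfrsf17, the plasma cell receptor BCMA, was at 1.00 in that library and at 2.37 at most, and Derl3 was at 0 there. The list summed to 1299 normalized counts in replicate 3 of IgHMOG iGBGFP and 641 to 1000 in the other libraries.

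Germinal centre genes bear on the culture the B cells came from. Of 10, 6 were under the filter. Of the 4 tested, 1 fell with limma (3.37% of all genes tested did), 1 was called with edgeR (6.11% were) and 2 with DESeq2 (9.58% were). The gene that fell was Gpr183, a migration receptor of B cells, dendritic cells and other leukocytes (203 ± 90.0 to 49.4 ± 31.0 normalized counts, log2 fold change -2.13, adjusted p = 0.00397 by limma). It did not pass without IgHMOG iGBGFP replicate 2 (adjusted p = 0.0775) or replicate 3 (adjusted p = 0.0535), nor with no sex term (0.122). Fas, the death receptor, was at 580 ± 97.7 and 345 ± 72.7 and did not pass (-0.75, adjusted p = 0.0574). Bcl6, the most abundant of the list and also expressed by myeloid cells, was at 914 ± 242 and 872 ± 92.2.

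Plasmacytoid dendritic cells express Mzb1 as well, so their genes were examined beside it. Of 10, 6 were under the filter, and 0 of the 4 tested passed with limma, edgeR or DESeq2, with 3 at an unadjusted p under 0.05, where 24.5% of all genes were. Siglech, their defining lectin, was at 4.09, 4.31 and 11.0 normalized counts for IgHMOG iGBGFP and 0, 3.16 and 10.1 in WT iGB6 replicates 1, 2 and 3. Runx2 and Lair1 had the smallest p, with log2 fold changes of -0.79 and 0.61 (adjusted p = 0.0815 and 0.115), and Lair1 and Bst2 were the most abundant. The list summed to 710 to 1113 and 779 to 1148, and the part of these cells in the Mzb1 values was not tested.

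Summed over the 10 members, the level was 3397 ± 948 normalized counts for IgHMOG iGBGFP and 2093 ± 203 in WT iGB6, a log2 ratio of -0.70 with no test, and 0.0266 to 0.0849% of a library. Ighm set that sum. The 9 members other than Ighm summed to 13.3, 18.1 and 394 in IgHMOG iGBGFP replicates 1, 2 and 3, and in WT iGB6 to 8.30, 33.9 and 45.0. Their log2 ratio of group means was -2.29, and it turned to 0.89 without IgHMOG iGBGFP replicate 3. For the sum of these 9 members, then, the direction of the group difference rested on 1 library. Taken singly, Ighg1 stayed lower in WT iGB6 when any 1 library was left out (log2 fold change -3.48 to -0.84). Ighg2b, at a very low level, stayed higher in WT iGB6 (difference of group means 2.57 to 7.04 normalized counts).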

How the data were processed

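The data are 6 bulk RNA-seq libraries, each from sorted spleen cells of its own mouse per the labels. The submitters' processing notes name the aligner STAR 2.7.10b, the counter featureCounts 2.0.3 and DESeq2 2.11.40.7, besides cutadapt 4.4, FastQC 0.74 and the builds mm10 and GRCm38. The deposited signal values are normalized counts, which the authors made by dividing whole featureCounts reads by 1 size factor per library, per the file headers and the values. Dividing by each column's step returned whole reads for 100% of values (tolerance 0.001). The labels describe no molecular identifiers, so counting intervals are lower limits. A second table, deposited without a header, holds the authors' DESeq2 results: log2 fold change, standard error, test score, raw p-value and adjusted p-value. The order of its columns and the direction of its comparison (WT iGB6 over IgHMOG iGBGFP) were inferred from the values.

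Symbols, coordinates and transcript sequences came from GENCODE M21 (GRCm38), matched on identifier for 42462 of 43432 genes. The test was limma 3.58.1 in R 4.3.3 (variance trend) on log2(normalized count + 1), for 9923 genes whose mean reached 10, two-sided, in a model of group and sex with Benjamini-Hochberg adjustment over all genes and a threshold of 0.05. This scale understates the change of low genes. Alternatives included edgeR 4.0.16 and DESeq2 1.42.0 on the recovered reads, and scripts were tested on simulated data. Members under the filter were compared by exact permutation of normalized counts. Members, marker lists and tests were chosen with earlier results of these data known. Named genes are all members, per list the 2 with the smallest p, the 2 most abundant and those called, and the 5 genes most like Ighm, Igkc, Jchain and Mzb1 over the libraries (those like the last 3 by the closest). Other list genes named were chosen after their values were seen. Some list genes are not reported here.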

Additional observations from a re-analysis of the deposited data

How the results depend on the processing

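The limma count of 607 genes called became 1079 with no filter, 10 with no sex term, 134 with males alone, 1443 with library weights and 951 with DESeq2. It ran from 4 (without IgHMOG iGBGFP replicate 2) to 1083 (without WT iGB6 replicate 2) when 1 library was left out, with 26 without IgHMOG iGBGFP replicate 3, 128 without IgHMOG iGBGFP replicate 1 and 135 without WT iGB6 replicate 1. The number of members called lower was 0, and became 1 (Ighm) with library weights, with DESeq2 and in the authors' deposited table. The number called higher was 0, and became 1 (Ighg2b) with no filter. Leaving out 1 library gave 0 members called in either direction in all 6 fits. Those without replicate 1 of either group rest on the same libraries as males alone. The log2 fold change of Ighm kept its sign in all 18 alternatives. Leaving out 1 library, that of Igkc ran from -1.30 to 0.70 and that of Jchain from -2.30 to 1.21, positive without IgHMOG iGBGFP replicate 3. The log2 ratio of the summed members ran from -0.87 to -0.47 when 1 library was left out. The cause of these shifts was not tested.

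With the replicate block, 1001 genes and 0 members were called, and Ighm had an adjusted p = 0.0631. Deviations from the group means correlated at 0.48, 0.35 and 0.04 for replicates 1, 2 and 3. Between replicates of unlike number they correlated at -0.51 to 0.29, so pairs 1 and 2 lay above that range and pair 3 within it. The numbers were therefore not taken to pair the mice, but these values do not settle whether they do. Each of the 6 members under the filter had 1 to 22 reads in all, which leaves differences of a few reads undetectable at this depth.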

Other observations

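T cells were the other cells transferred, and few of their genes had many reads. Of 12 T cell genes, 7 were under the filter. Of the 5 tested, 1 fell with limma (3.37% of all genes tested did), while 2 were called with edgeR (6.11% were) and 2 with DESeq2 (9.58% were). The gene that fell was Lat, an adaptor that basophils and mast cells also use (log2 fold change -1.75, adjusted p = 0.0167 by limma). IgHMOG iGBGFP libraries had 56.9 ± 9.36 normalized counts of Lat, and WT iGB6 libraries 16.1 ± 1.62 (SD, n = 3 each). That call was lost without any 1 of the IgHMOG iGBGFP libraries or WT iGB6 replicate 1, with adjusted p from 0.0638 to 0.125, and with no sex term (0.0887). Trbc2, a constant gene of the T cell receptor beta chain, was at 25.1 ± 16.9 and 5.92 ± 1.96 and did not pass with limma (-1.75, SE 0.51, adjusted p = 0.0688). Cd3d and the kinase Lck were the most abundant, Cd3d at 80.9 ± 45.0 and 73.3 ± 11.3 and Lck at 53.4 ± 39.5 and 61.1 ± 61.4. Cd3e, another chain of the same complex, was at 1.02 to 4.0 in IgHMOG iGBGFP and at 0 in all WT iGB6 libraries. A count of 0 allows up to 3 reads, and only IgHMOG iGBGFP replicate 3, with 4 reads of Cd3e, exceeded that. Trac, the constant gene of the alpha chain, was at 2.05, 4.31 and 16.0 in IgHMOG iGBGFP replicates 1, 2 and 3 and at 0, 0 and 1.12 in WT iGB6. The groups did not overlap for Cd3e and Trac, both under the filter. Of the genes tested, 23.6% did not overlap either, and no such share was taken for genes under the filter. Cd4 was at 22.4 ± 10.6 and 9.08 ± 1.44 and did not pass (-1.13, SE 0.43, adjusted p = 0.146 by limma). Trac, Cd3e, Cd3g, Cd28 and Cd4 were highest in IgHMOG iGBGFP replicate 3. Other genes of the list were highest elsewhere. These were Cd3d in IgHMOG iGBGFP replicate 1, Lat and Trbc2 in IgHMOG iGBGFP replicate 2, and Lck, Cd247, Trbc1 and Cd5 in WT iGB6 replicate 3.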
